A study of Rattus norvegicus with 12 samples.

Results

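The genes described here encode 2 opioid peptide precursors, Penk and Pnoc, and the 4 receptors of the opioid family, Oprm1, Oprk1, Oprd1 and Oprl1. A probe set, the short array probes that together read 1 transcript, was included when the platform annotation gave it 1 gene symbol and that symbol was one of the 6. This gave all 6 genes, of 14217 with a symbol of their own on the array, and 11 of the 31042 probe sets tested: 1 each for Penk, Pnoc and Oprd1, 2 for Oprm1 and 3 each for Oprk1 and Oprl1. RNA came from the arcuate nucleus (ARC) of the hypothalamus of male Wistar rats aged 3 months, collected by laser-capture microdissection from stained frozen sections, and was amplified before hybridisation, with 1 animal per array. The 6 control animals were born to and raised by control dams. The 6 recuperated animals were born to mothers kept on low protein (8%) in pregnancy and, once the groups had been formed on postnatal day 3, were suckled by control dams. By the study's methods, recuperated litters were reduced to fewer pups than control litters, and to males alone, so maternal diet and litter cannot be told apart. Both groups ate standard chow after weaning. Each value is a log2 signal made by the authors with RMA, shifted so that the medians of all arrays lie at 6.26. Binding strength varies from probe set to probe set, so levels are compared between animals and never between probe sets.

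Opioid peptides are cut out of larger precursors, stored in secretory granules and released by neurons to act on receptors that signal through the inhibitory Gi/o proteins, which lower cyclic AMP, open potassium channels and close calcium channels. Penk is the precursor of the enkephalins, which act mainly at the delta receptor Oprd1 and the mu receptor Oprm1. Pnoc is the precursor of nociceptin, which acts at Oprl1 and hardly at all at the classical opioid receptors. In the hypothalamus this system is known for its effects on feeding, reward and the release of pituitary hormones.

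Recuperated array 4 stood apart from the other arrays in the markers of the dissected tissue. All 5 measured markers of the neighbouring ventromedial nucleus (VMN) had their highest value there, and their mean lay 2.71 above the array median on the log2 scale, against -0.36 to 0.95 on control arrays and -0.49 to 0.51 on the other recuperated arrays. Nr5a1, the gene that defines the VMN, read 8.86 there and at most 5.98 elsewhere. Of 13 measured ARC markers, 11 were at their lowest there, with a mean of 0.98 above the array median against 2.74 to 3.09 on the other 11 arrays, and so were 6 of 7 tanycyte and ependyma markers, at -0.20 against 1.11 to 1.76. Of the 13 ARC markers, 9 exceeded the array median in 12 of 12 animals, and Pomc did so in 0 of 12. The study reported high Pomc expression in its dissected tissue by Taqman RT-PCR, and did not detect Nr5a1 there. Between the groups, 12 of the 13 ARC markers had a negative log2 fold change. The list median was -0.47, but -0.096 without recuperated array 4. Beside 1.27% of all probe sets, 2 of the 13 were lower at 1.3-fold with an unadjusted P under 0.05 from limma (adjusted p = 0.999 each). These were Prlr, the prolactin receptor, at -0.48 (p = 0.0173 in an exact permutation test), and Slc6a3, the dopamine transporter, at -0.71 (p = 0.0606 in an exact permutation test). Without recuperated array 4 Prlr was at -0.42 and still past this threshold, and Slc6a3 was at -0.40 and no longer past it. The means of the neuron and astrocyte lists on this array lay within the range of the other arrays, but some markers did not. Of 9 neuron markers, 4 were at their highest there and 2 at their lowest. Slc17a6 read 11.59 against 9.04 to 10.61 elsewhere, and Slc32a1 read 8.48 against 10.04 to 10.89. Among 7 astrocyte markers, 1 was at its highest there and 2 at their lowest. The oligodendrocyte list mean was above the range of the other arrays, at 4.18 against 3.62 to 4.01. The endothelium list was also above its range, at 0.63 against 0.09 to 0.60, and the microglia list below, at 0.50 against 1.00 to 1.47. For beta-actin, a measure of RNA quality, the probe set at the 3' end exceeded the one at the 5' end by 1.96 there and by 1.04 to 1.90 elsewhere (log2), and for GAPDH this difference lay inside the range of the others. Group differences of the opioid genes are therefore given with and without this array, and those of other genes where it moves them by over 1.5 times.

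No opioid gene had a difference between recuperated and control animals that passed the test against the spread between animals. With limma over all probe sets, 0 of the 11 probe sets passed an adjusted p of 0.05 (adjusted p = 0.999 for each of the 11), where the share over all 31042 probe sets was 0%. None of the 11 had an unadjusted P under 0.05, by limma or by the methods' t-test. At the threshold of the study's methods, 1.3-fold with P under 0.05, 0 of 11 were higher and 0 of 11 lower, against 1.2% and 1.27% of all probe sets, or 371 and 395. Without the subtraction of array medians these background counts were 434 and 302. Control and recuperated values overlapped for 11 of 11 probe sets, whereas 0.139% of all probe sets had groups that did not overlap. The log2 fold change, recuperated minus control, was positive for 5 and negative for 6 of the 11, with a median of -0.11 beside -0.03 over all probe sets. These are measurements in bulk tissue, in which fewer cells of a type and less RNA per cell cannot be told apart.

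**Figure D1:**
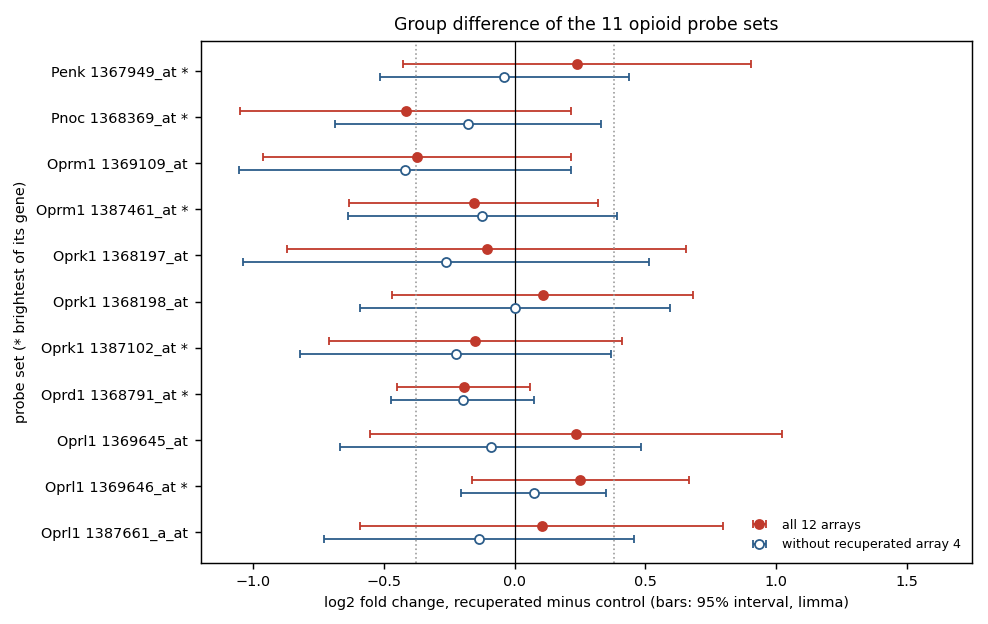
Difference between recuperated and control animals (log2 fold change) for the 11 opioid probe sets, with the 95% interval from limma, from all 12 arrays (red, filled) and without recuperated array 4 (blue, open). Dotted lines mark 1.3-fold, asterisks the brightest probe set of each gene, and every interval includes 0.

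Penk, the enkephalin precursor (1367949_at), exceeded the array median in 12 of 12 animals. In control animals its lowest, median and highest log2 signals were 10.67, 10.81 and 11.69, and in recuperated animals 10.44, 11.05 and 12.59. The recuperated group held both the highest and the lowest value of the 12 arrays, and 4 of its 6 animals lay above the control median. Control animals averaged 10.96 ± 0.39 and recuperated animals 11.20 ± 0.77 (SD, n = 6 each), which put the log2 fold change, recuperated minus control, at 0.24 (standard error, SE, 0.31; p = 0.563 in an exact two-sided permutation test). As a fold this was 1.18, with a 95% interval from 0.744 to 1.87. The highest value belonged to recuperated array 4, and the next highest, 11.69, to control array 1. Without recuperated array 4 the log2 fold change of Penk was -0.039 (SE 0.22; p = 0.887 in an exact permutation test), so its direction turned with that array.

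Pnoc, the nociceptin precursor (1368369_at), exceeded the array median in 12 of 12 animals. The lowest, median and highest log2 signals were 7.88, 8.34 and 8.86 in control animals and 6.74, 8.05 and 8.68 in recuperated animals. Recuperated arrays 4, 5 and 6 lay below every control array, at 6.74, 7.61 and 7.65, while recuperated arrays 1, 2 and 3, at 8.46, 8.45 and 8.68, lay above the control median. The means of 8.35 ± 0.36 (SD, n = 6) and 7.93 ± 0.74 (SD, n = 6) gave a log2 fold change of -0.42 (SE 0.30; p = 0.251 in an exact permutation test), the largest of the 11 in size. In fold terms Pnoc was at 0.749 of control, with a 95% interval from 0.483 to 1.16. Without recuperated array 4 the difference was -0.18 (SE 0.23; p = 0.502 in an exact permutation test).

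**Figure D2:**
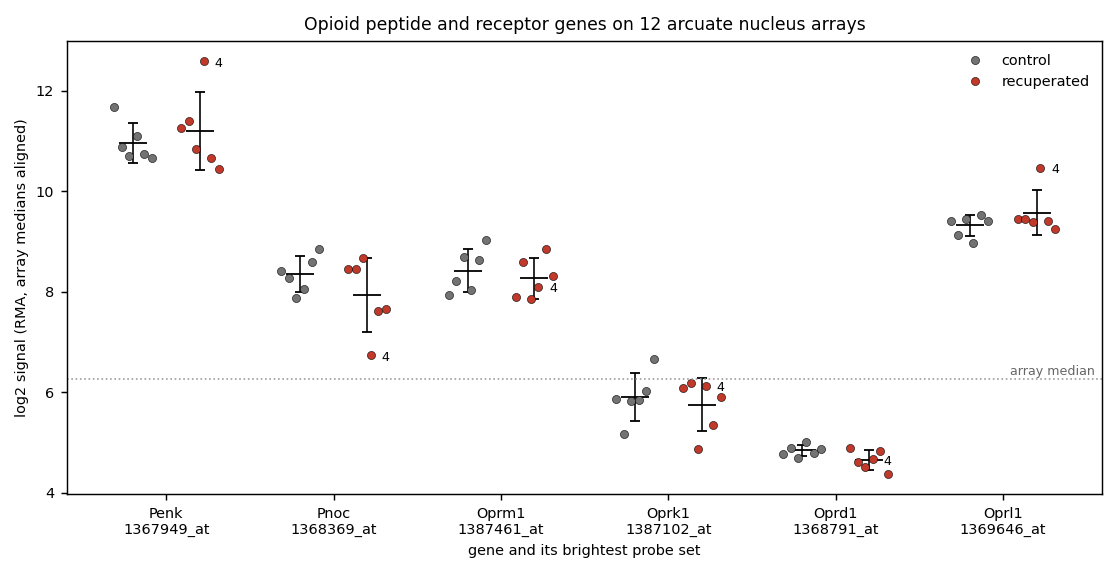
Log2 signal of the brightest probe set of each opioid gene on each of 6 control (grey) and 6 recuperated (red) arrays, with the means and SDs of the groups as bars, the array median as a dotted line and recuperated array 4 numbered. That array is the highest for Penk (12.59) and Oprl1 (10.47) and the lowest for Pnoc (6.74), and the groups overlap for each gene.

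Oprm1, the mu receptor, which binds enkephalins, beta-endorphin and morphine, was read by a bright and a dim probe set. On the bright one (1387461_at), which exceeded the array median in 12 of 12 animals, control animals had 7.93, 8.42 and 9.04 as their lowest, median and highest log2 signals. Recuperated animals had 7.85, 8.20 and 8.86, nearly the same range, and their highest value was not on array 4. The log2 fold change was -0.16 (SE 0.22; p = 0.522 in an exact permutation test), with a 95% interval from -0.63 to 0.32. The dim probe set (1369109_at) exceeded it in 0 of 12. It ran from 3.69 to 5.67 in control and from 3.83 to 4.59 in recuperated animals, of which 0 of 6 lay above the control median. Its log2 fold change was -0.37 (SE 0.27; p = 0.271 in an exact permutation test). Without control array 3, which held the lowest value, it was -0.57 and met the 1.3-fold threshold with an unadjusted P = 0.0334 from limma, but with an adjusted p of 0.999. Without control array 6, which held the highest value, it was -0.17 (unadjusted P = 0.474 from limma), and the bright probe set was then at -0.033. Without recuperated array 4 the log2 fold change was -0.12 on the bright and -0.42 on the dim probe set. Oprm1 thus had a negative difference on both probe sets, with and without that array, and neither was larger than the spread between animals. Over the 12 arrays the 2 probe sets tracked each other weakly, with Pearson's r of 0.33 and Spearman's rho of 0.21. Permutation tests gave Benjamini-Hochberg adjusted p = 0.359 and 0.599 over 7 pairs of probe sets. Leaving out the 2 arrays farthest from the median gave r = 0.17.

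Oprk1, the kappa receptor, on which the dynorphins act, had a weak signal. Its 3 probe sets exceeded the array median in 1 (1387102_at), 1 (1368197_at) and 0 (1368198_at) of 12 animals. On the brightest (1387102_at), the lowest, median and highest log2 signals were 5.17, 5.86 and 6.67 in control and 4.87, 5.99 and 6.18 in recuperated animals. The medians ran opposite to the means, which were 5.90 ± 0.48 (SD, n = 6) and 5.75 ± 0.53 (SD, n = 6), a log2 fold change of -0.15 (SE 0.26; p = 0.632 in an exact permutation test). This turned positive without control array 6 or without recuperated array 3. The other probe sets gave -0.11 (1368197_at) and 0.11 (1368198_at). Without recuperated array 4 the 3 differences were -0.23 (1387102_at), -0.26 (1368197_at) and 0.0027 (1368198_at). The sign of a group difference was thus not the same across the Oprk1 probe sets, and over the 12 arrays the probe sets tracked each other weakly, with Pearson's r of 0.42, 0.41 and -0.04 (Spearman's rho 0.30, 0.44 and -0.05; permutation tests, Benjamini-Hochberg adjusted p = 0.256, 0.256 and 0.913 for r and 0.466, 0.440 and 0.887 for rho over 7 pairs of probe sets). With the 2 arrays farthest from the median left out, r was 0.33, 0.58 and 0.16.

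Oprd1, the delta receptor and the main target of the enkephalins, was read by a dim probe set (1368791_at), above the array median in 0 of 12 animals. The lowest, median and highest log2 signals were 4.70, 4.84 and 5.01 in control animals and 4.38, 4.64 and 4.89 in recuperated animals. Recuperated arrays 2, 3, 4 and 6 lay below every control array, and the other two lay inside the control range. The means were 4.84 ± 0.11 (SD, n = 6) and 4.65 ± 0.19 (SD, n = 6), a log2 fold change of -0.20 (SE 0.12; p = 0.0649 in an exact permutation test). This was the smallest p of the 11, and the difference was -0.20 without recuperated array 4 as well (exact permutation test, p = 0.0909). With arrays weighted by their quality it was -0.25, with an unadjusted P = 0.0454 and an adjusted p = 0.937 from limma. The fold was 0.874, with a 95% interval from 0.732 to 1.04, the narrowest of the 11 on the log2 scale.

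Oprl1, the nociceptin receptor, had a bright probe set (1369646_at), above the array median in 12 of 12 animals. Its lowest, median and highest log2 signals were 8.97, 9.41 and 9.53 in control animals and 9.25, 9.43 and 10.47 in recuperated animals. The group medians differed by little, and recuperated array 4 alone lay above the control range. The log2 fold change was 0.25 (SE 0.19; p = 0.273 in an exact permutation test), or 1.19-fold with a 95% interval from 0.893 to 1.59. Without recuperated array 4 it was 0.07 (SE 0.13; p = 0.537 in an exact permutation test), and the SD of the recuperated group went from 0.45 (n = 6) to 0.08 (n = 5). The dimmer probe sets gave 0.23 (1369645_at) and 0.10 (1387661_a_at) over all arrays, and -0.091 and -0.14 without recuperated array 4. Thus the direction held without that array on the bright probe set and turned on the others.

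Recuperated array 4 had the highest value of 4 of the 11 opioid probe sets and the lowest of 1, beside 13.0% and 14.4% of all probe sets with their highest or lowest value there. The 4 were Penk and all 3 probe sets of Oprl1, and the other was Pnoc. Penk read 12.59 there against 10.44 to 11.69 on the other 11 arrays, which is 1.64 above their mean, where their SD was 0.38. Oprl1 read 10.47 against 8.97 to 9.53 on its bright probe set, 7.73 against 4.97 to 6.57 on 1369645_at and 8.04 against 5.89 to 7.52 on 1387661_a_at. Pnoc, the precursor of the ligand of Oprl1, read 6.74 against 7.61 to 8.86, which is -1.53 relative to their mean (SD 0.42). On this animal's array the nociceptin precursor was therefore low and its receptor high. Oprm1, Oprk1 and Oprd1 lay inside the range of the other arrays on 6 of 6 probe sets. The VMN, ARC and tanycyte marker levels given above moved on the same array, and their part in the values of Penk, Pnoc and Oprl1 was not tested.

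**Figure D3:**
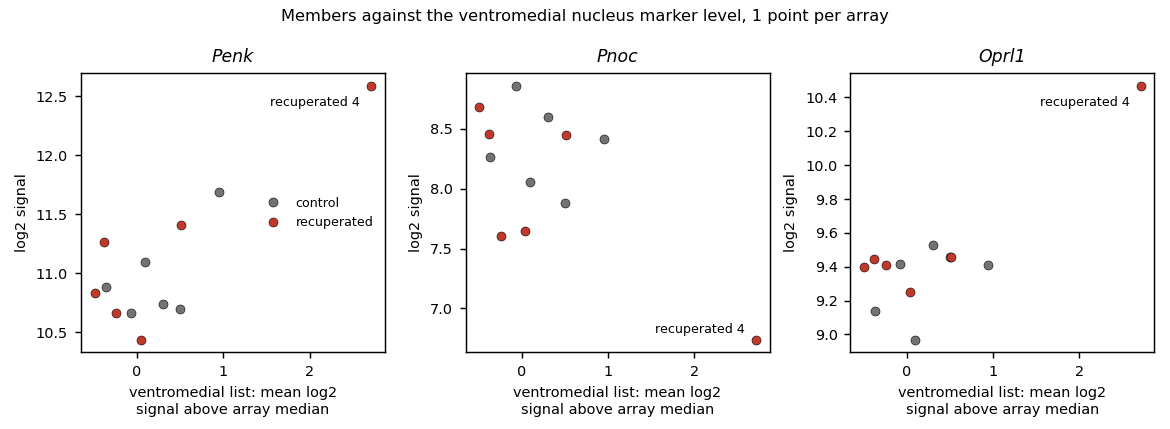
Log2 signal of Penk, Pnoc and Oprl1 (brightest probe set) against the mean log2 signal of 5 VMN markers above the array median, 1 point per array, with grey for control and red for recuperated animals. Recuperated array 4 lies alone at a VMN level of 2.71, where Penk and Oprl1 are at their highest and Pnoc at its lowest, and the other 11 arrays lie between -0.49 and 0.95.

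Of 15 pairs of main probe sets, 0 had a correlation over the 12 arrays that passed adjustment over the 15. The largest was between Penk and Oprl1, with Pearson's r = 0.73 (permutation test, p = 0.0400, adjusted p = 0.522) and Spearman's rho = 0.27 (permutation test, adjusted p = 0.925). It rested on recuperated array 4, since r was 0.04 without it and -0.04 without the 2 arrays farthest from the Penk median. Pnoc and Oprl1, ligand precursor and receptor, had r = -0.57 over the 12 arrays (rho = 0.03; permutation tests, adjusted p = 0.522 and 0.925), 0.33 without recuperated array 4 and 0.46 without the 2 arrays farthest from the Pnoc median. Penk and Oprm1 ran opposite to each other by rank (rho = -0.61, r = -0.45; permutation tests, adjusted p = 0.380 and 0.522), and here r was -0.50 without recuperated array 4 and -0.39 without the 2 farthest arrays. The 3 probe sets of Oprl1 correlated with each other at r = 0.72, 0.78 and 0.62 (rho = 0.38, 0.68 and 0.36; permutation tests, adjusted p = 0.0836, 0.0185 and 0.0836 for r and 0.440, 0.130 and 0.440 for rho over 7 pairs of probe sets), and at 0.09, 0.59 and 0.13 without recuperated array 4. With the 2 farthest arrays left out, those r were -0.04, 0.53 and 0.27.

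Among 12093 probe sets with 1 symbol and a mean above the array median, those whose pattern over the 12 arrays was most like Penk belonged to Camk2b, a subunit of the calcium/calmodulin-dependent kinase II (r = 0.95), Tmem215 (r = 0.94) and Cbln1, a secreted synaptic organiser (r = 0.94). Camk2b and Tmem215 were again among the 3 nearest to Penk over the 11 arrays without recuperated array 4, at r = 0.89 and 0.85. All 3 genes read higher on recuperated array 4 than on any other array, as Penk did, with Cbln1 at 11.58 against 8.35 to 10.14. For Oprl1 the nearest gene was Fhod3, at r = 0.97 over 12 and 0.94 over 11 arrays, followed over 12 arrays by Syt10, a synaptotagmin, and Nefm, the medium neurofilament, at r = 0.95 each. Pnoc was nearest to Gps1, a subunit of the COP9 signalosome, over both sets of arrays (r = 0.97 and 0.92). The nearest gene to Oprm1 was Eif4e, the cap-binding translation factor, at r = 0.89 over both sets. For the dim receptors the nearest genes differed between the sets of arrays: Polr3a (r = 0.84) and then Nfil3 (r = 0.88) for Oprk1, and Mtdh (r = 0.88) and then Tdrp (r = 0.92) for Oprd1. These values describe the best of many probe sets over few arrays, and were not tested.

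The other genes of opioid signalling gave no difference past the test either. Of 41 measured genes in 6 lists, read by the brightest probe set of each, 0 passed the adjusted test and 0 met 1.3-fold with P under 0.05 in either direction, and their median log2 fold change was -0.02 beside -0.03 over all probe sets. Pdyn, the dynorphin precursor, averaged 11.07 ± 0.09 in control and 11.18 ± 0.20 in recuperated animals (SD, n = 6 each; exact permutation test, p = 0.301). Pomc, the precursor of beta-endorphin and of melanocortins, averaged 5.88 ± 0.22 and 5.75 ± 0.29 on a dim probe set (SD, n = 6 each; exact permutation test, p = 0.407). On recuperated array 4 Pdyn was at its highest, 11.53, and Pomc at its lowest, 5.51, and without it their log2 fold changes went from 0.11 to 0.035 and from -0.13 to -0.076. Among other proteins that bind opioid peptides, Ackr3, a scavenger receptor, had a log2 fold change of -0.15, and Ogfr, the opioid growth factor receptor, of -0.07 (-0.0060 without recuperated array 4).

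Of 6 genes that process precursors, 2 had a positive and 4 a negative difference. The 2 with the smallest p were Ctsl, a cysteine protease that cuts proenkephalin in secretory granules, at -0.18 (SE 0.14), and Pcsk2, the prohormone convertase, at -0.23 (SE 0.22). Without recuperated array 4, where Pcsk2 was at its highest and Ctsl at its lowest, Ctsl was at -0.077 and Pcsk2 at -0.39, past 1.3-fold but with an unadjusted P = 0.0581 from limma. Of 7 peptidase genes that break down opioid peptides, 4 were positive and 3 negative. Ace, which removes dipeptides from enkephalins, was at -0.26 (SE 0.14; p = 0.0844 in an exact permutation test). Nln, which encodes neurolysin, was at 0.18 (SE 0.11; p = 0.0476 in an exact permutation test), the only one of the 41 with an exact p under 0.05 and short of 1.3-fold, with an adjusted p of 0.999 from limma. Of 12 Gi/o subunits and effectors, 5 were positive and 7 negative, with Gnao1, the alpha subunit of Go, at 0.15 (SE 0.13) and the calcium channel gene Cacna1b at 0.15 (SE 0.15), or 0.048 without recuperated array 4. Of 12 genes for desensitisation and sorting of receptors, 7 were positive and 5 negative, with Grk3, a receptor kinase, at 0.41 (SE 0.34; p = 0.312 in an exact permutation test), or 0.27 without recuperated array 4, and Rgs19 at -0.18 (SE 0.21). The Grk3 probe set was dim, above the array median in 0 of 12 animals.

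**Figure D4:**
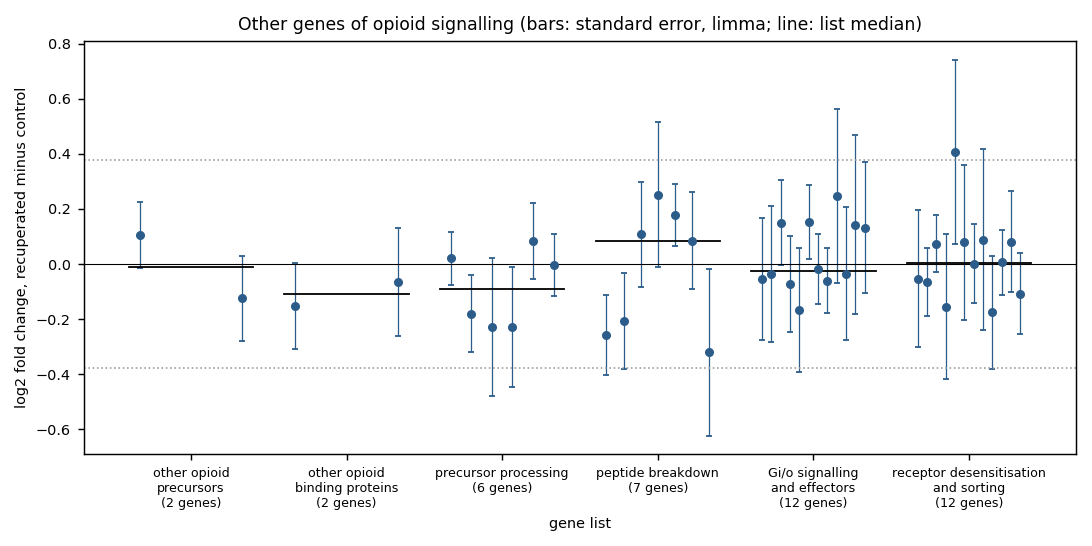
Difference between recuperated and control animals (log2 fold change) for the 41 measured genes of opioid signalling in 6 lists, in alphabetical order within a list, with the SE from limma as bars, a line at each list's median and dotted lines at 1.3-fold. The medians lie between -0.11 and 0.09, and the only point past 1.3-fold with all 12 arrays is Grk3, on a dim probe set, at 0.41 (SE 0.34). Without recuperated array 4 Grk3 was at 0.27 and Pcsk2, at -0.39, was past 1.3-fold.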

How the data were processed

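The table deposited by the authors holds log2 RMA values of 31099 probe sets for the 12 arrays. RMA subtracts background, quantile-normalizes the probes and combines them by median polish. RMA and Affymetrix Expression Console are named in the submitters' processing notes (their versions are not given in the sources used here), and GeneSpring in the study's methods. Quantile normalization makes array distributions alike, so a shift of all genes would not show. GC-RMA and GCOS values were not analysed here. Arrays were not pooled, give no read depth, and their number limits the precision.

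Of the probe sets, 57 control probe sets of the manufacturer were left out, and each array's median over the other 31042 was subtracted and the mean of the medians added back, after the median scaling per chip in the study's methods. The comparison of groups used limma 3.58.1 (lmFit, eBayes; R 4.3.3) without covariates and with Benjamini-Hochberg adjustment over all 31042. For single probe sets, all 924 arrangements of the arrays gave an exact two-sided permutation test (smallest possible p = 0.00216), and correlations were tested with 100000 permutations. P-values of group differences set them against the spread between animals, and by the study's account n counts litters. Python 3.11.15 with scipy 1.17.1 was used for tables and plots. On simulated data for this comparison (31042 probe sets), log2 changes of 0.5, 1, 2 and 3 were recovered for 3, 33, 49 and 50 of 50 probe sets, with 5 false calls. The simulation drew each value independently, with no shift shared by the genes of an array, and held all these changes at once. Recovery in the real data, where recuperated array 4 stood apart, was not measured and may be lower.

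Symbols came from the platform annotation: 20826 probe sets had 1 symbol, 436 several and 9780 none. The main probe set of a gene had the highest mean over all arrays. Named are all member probe sets, the 2 genes of each of the 6 pathway lists with the smallest limma p and any past 1.3-fold with P under 0.05, the 3 genes most like each member's main probe set by Pearson's r (given in part), and markers. Grk3, among others, is named by this rule. The members and lists were chosen with earlier results of these data known. Of the listed genes, 12 had no probe set with that symbol alone, Agrp and Pcsk1 among them. The alternatives were no subtraction of medians, quantile normalization, array weights, a robust fit, the methods' t-test, removal of dim probe sets, the replicate number as a block, each array left out in turn, linear means and gene means.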

Additional observations from a re-analysis of the deposited data

Results flagged for a closer look

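Oprl1, the nociceptin receptor, had 1 recuperated animal far from the other 5 on its bright probe set. Recuperated array 4 read 10.47 (log2), where the other recuperated arrays lay between 9.25 and 9.46, so that its gap to the next array was 0.828 of the range of the group, above the 95% critical value of Dixon's test for 6 samples. It was the only one of 22 groups (11 probe sets in 2 groups) past this value, and chance gives about 1 in 20. Penk on the same array, at 12.59, and Pnoc, at 6.74, were extreme among the 12 arrays but not past this value.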

How the results depend on the processing

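No member probe set reached an adjusted p of 0.05 under any alternative (lowest adjusted p = 0.800, Oprd1 in the robust fit). Of 217 recomputed fold changes, 202 kept their direction and 15 turned. With single arrays left out, the log2 fold change ran from -0.039 to 0.39 for Penk (turned without recuperated array 4), from -0.30 to 0.026 for Oprk1 1387102_at, from -0.34 to 0.094 for 1368197_at, from -0.021 to 0.29 for 1368198_at, from -0.091 to 0.46 for Oprl1 1369645_at and from -0.14 to 0.26 for 1387661_a_at. With array weights, Oprk1 1368198_at was at -0.20, Oprl1 1369645_at at -0.12 and 1387661_a_at at -0.072, while Penk was at 0.0084 and Oprd1 at -0.25 (unadjusted P = 0.0454), the only member under 0.05 with all arrays in the fit. Of all 31042 probe sets, 1548 had an unadjusted P under 0.05 with array weights. The number of members past 1.3-fold with P under 0.05 was 0 to 1 with single arrays left out, the 1 being the dim Oprm1 probe set without control array 3, and 0 otherwise. Leaving out control array 3 gave 408 higher and 483 lower among all 31042 probe sets at this threshold. The Pnoc, Oprd1, Oprm1 and bright Oprl1 probe sets kept their direction but not their size, with ranges over all alternatives of -0.57 to -0.18 for Pnoc, -0.25 to -0.14 for Oprd1, -0.28 to -0.033 for the bright Oprm1 probe set (lowest in size without control array 6), -0.57 to -0.17 for the dim one (likewise) and 0.030 to 0.32 for Oprl1 (lowest in the robust fit). Without recuperated array 4, r turned to 0.35 for Penk with Pnoc, -0.11 for Pnoc with Oprm1, 0.33 for Pnoc with Oprl1 and 0.36 for Oprm1 with Oprl1. The causes were not tested.

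The replicate numbers in the sample titles gave no sign of pairing: same-numbered arrays correlated in their deviations at -0.16 to 0.08, and 0 of 6 correlated best with its own number. Whether arrays shared a batch cannot be told from these correlations. With the number as a block the Penk difference stayed at 0.24, and 0 members were called.

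Over all probe sets, quantile normalization gave 447 higher and 313 lower at 1.3-fold with P under 0.05, the filter on dim probe sets (15622 left) 118 and 150, the methods' t-test 243 and 263, and leaving out recuperated array 1 462 and 622. The adjusted test called 0 of 31042, but 1 in the robust fit and 1 without recuperated array 2.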
